A study of Mus musculus with 18 samples.

Results

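The values described here come from 4 of 18 arrays, those of mCherry+ cells on day 8 of reprogramming. Low-KLF4 and high-KLF4 each had 2 day 8 arrays, of which 1 has a title that ends in 2 (called the second array) and the other a title with no number (the first array). The 2 second arrays were compared with the 2 first arrays with the cassette as a block, so that each second array was set against the first array of its own cassette. The study followed mouse embryonic fibroblasts (MEFs) on their way to induced pluripotent stem cells (iPSCs), and asked how the amount of KLF4 changes the intermediates. RNA levels were read with Affymetrix Mouse Gene 1.0 ST microarrays, whose probes are spread over the length of each transcript.

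Every reprogramming array was made from MEFs that carried both a Nanog-GFP reporter and, at the ROSA locus, the reverse tetracycline transactivator. A *piggyBac* transposon (PB-TAC-OKMS or its OK+9MS version, given together with the pCyL43 transposase) brought in the 4 reprogramming factors and mCherry under 1 doxycycline-responsive promoter. The OKMS cassette has the short *Klf4* cDNA and is called low-KLF4, and the OK+9MS cassette has the long *Klf4* cDNA and is called high-KLF4. Doxycycline was given at 1 µg/mL, and mCherry+ cells were sorted by flow cytometry on days 2, 4, 8 and 18, with 1 array per cassette on days 2, 4 and 18. The cells are a pool of transposon insertions, not a clone, and the cultures were passaged on day 8. The other 8 arrays, 2 iPSC clones of each cassette, mouse embryonic stem cells (mESCs, line 1A2) and primary keratinocytes of newborn mice, entered the estimate of the spread.

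The study's methods describe the day 8 values as averages of a pair of independent experiments. The labels do not say which experiment an array belongs to, nor whether both second arrays came from the same one. Any difference in fibroblast preparation, culture, sorting, RNA or hybridization between the experiments therefore cannot be told apart from the number in the title. *Xist*, which is transcribed from the inactive X chromosome, lay between 45.1 and 48.7 on the 4 arrays, and the Y-linked *Eif2s3y* between 691.9 and 809.7. All 4 arrays held transcripts of fibroblasts (*Col1a1*, 1783 to 6952), of epithelia (*Cdh1*, 1829 to 4446) and of the pluripotency gene *Nanog* (888 to 2565) at once. Not every pluripotency gene was at such a level. *Tdgf1* lay between 302 and 580 on the 4 arrays (7239 and 8279 in mESCs), and *Sox2* between 95.4 and 175 (3993 and 5306 in mESCs).

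In the early phase of reprogramming, fibroblasts give up the genes of the mesenchyme (collagens and other matrix proteins, smooth muscle actin and its partners) and take on the junctions of an epithelium, a change known as the mesenchymal-to-epithelial transition (MET). Fast division accompanies this phase, and the endogenous pluripotency network is switched on later. Adherens junctions, desmosomes and tight junctions are the structures by which epithelial cells hold on to their neighbours and seal the layer that they form.

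Second and first arrays differed across much of the transcriptome, and mostly in the same direction in both cassettes. Of 23410 probes with a gene symbol, 3160 (13.5%) were higher and 2398 (10.2%) lower on the second arrays (limma on log2 signal, adjusted p under 0.05), which makes 5558 (23.7%) in all. Each of these 5558 probes moved the same way in low-KLF4 and in high-KLF4. The test favours such probes, because a gap between the cassettes adds to its spread. Of all 23410 probes, 8585 moved up in both cassettes and 8273 moved down in both. At least 2-fold differences were more often falls (611 probes) than rises (324), and at least 4-fold differences comprised 104 falls and 7 rises. Over the 23410 probes, the second minus first difference of low-KLF4 had a Pearson's r of 0.735 with that of high-KLF4, which share no array. Here probes are not independent replicates, and the r describes these 4 arrays alone. The median size of the difference between the 2 arrays was 0.175 on the log2 scale in low-KLF4 and 0.206 in high-KLF4, compared with 0.0956 and 0.0829 between iPSC clones, 0.12 between mESC arrays and 0.111 between keratinocyte arrays. The median signed shift of all probes was 0.002.

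**Figure D1:**
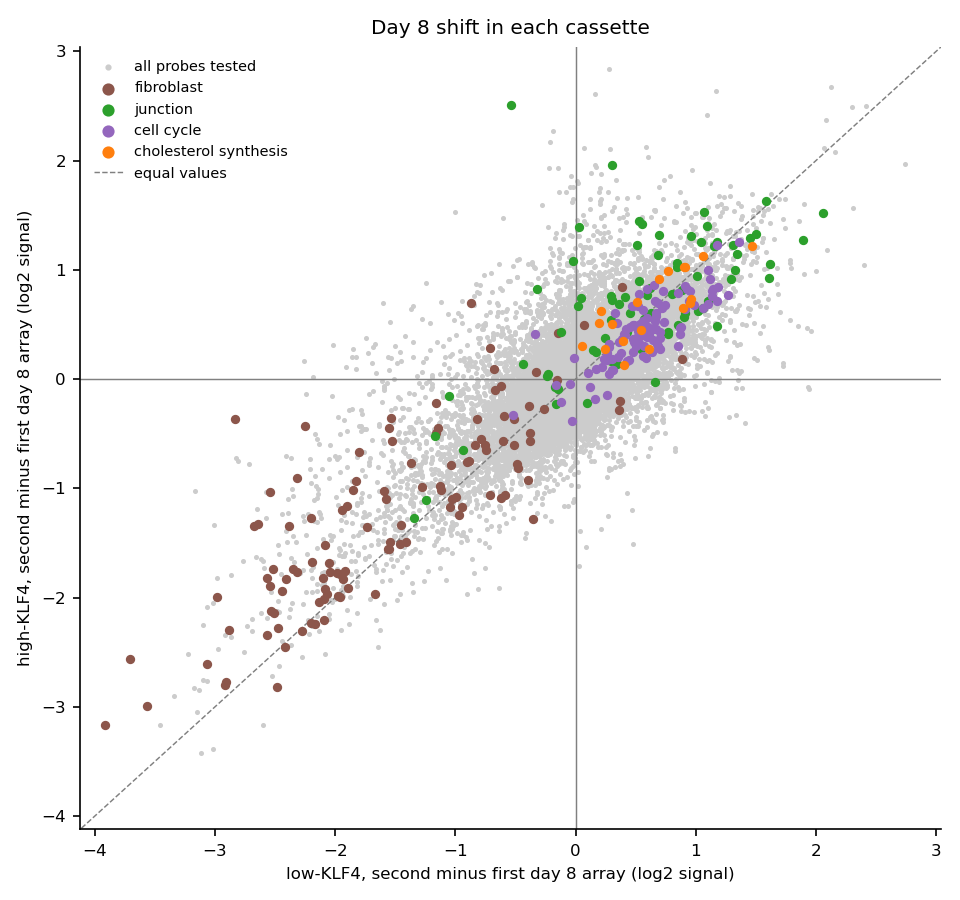
Second minus first day 8 array on the log2 scale in low-KLF4 (horizontal) and high-KLF4 (vertical), 1 point per probe. Most fibroblast genes (brown) lie at the lower left, and most junction, cell cycle and cholesterol synthesis genes (green, purple, orange) at the upper right, along the dashed line of equal values (r = 0.735 over 23410 probes).

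Fibroblast genes were lower on the second arrays. The matrix list (collagens, fibrillin, elastin and the enzymes that crosslink them) had 36 measured genes, and all 36 were lower on the second arrays, with a median shift of -1.93 on the log2 scale (0.002 over all probes). Both second arrays lay below both first arrays for 35 of the 36, as they did for 27% of all probes. In bulk RNA, fewer fibroblast-like cells and less matrix RNA per cell cannot be told apart. *Col1a1* (chr11:94936224-94953042 in GRCm38.p6), the main chain of type I collagen, had signals of 6952 and 6367 on the first arrays of low-KLF4 and high-KLF4 and 1783 and 1852 on the second arrays. The 2 groups did not overlap, and the fold of first over second was 3.66 (log2 shift -1.87 ± 0.20, SE; adjusted p = 0.000432). *Mgp* (chr6:136872435-136875823), which encodes the matrix Gla protein that keeps soft tissue free of mineral, fell furthest of the list. Its signals were 3178 and 2998 on the first arrays and 269 and 377 on the second (9.7-fold, log2 shift -3.28 ± 0.16, adjusted p = 1.14e-05). *Postn*, which encodes the matrix protein periostin, was at 6875 and 6003 on the first arrays and at 916 and 881 on the second. The 2 smallest shifts of the list were those of *Fbln1* (fibulin 1; -0.44, adjusted p = 0.0052) and *Pcolce*, an enhancer of procollagen processing (-0.69, adjusted p = 0.036), and *Pcolce* was the member whose second and first arrays lay closest in high-KLF4 (6395 against 7431).

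The list of transcription factors, receptors and surface proteins of fibroblasts had 32 measured genes, of which 23 were lower, 1 was higher and 8 did not pass the test (median shift -1.33). *Pdgfrb*, a receptor for platelet-derived growth factor, had 4485 and 3203 on the first arrays and 923 and 647 on the second (log2 shift -2.29 ± 0.11, adjusted p = 1.24e-05). *Prrx2*, a homeobox factor of mesenchyme, had 1875 and 1791 against 238 and 449 (log2 shift -2.49 ± 0.22, adjusted p = 0.000175). Both genes were lower on each second array than on either first array. The repressors of E-cadherin went the same way, with shifts of -2.04 for *Snai1*, -1.96 for *Snai2*, -1.56 for *Zeb1* and -1.31 for *Zeb2*, and so did *Twist1* (-1.34) and *Twist2* (-2.19), mesenchymal factors of the basic helix-loop-helix family. *Vim*, the intermediate filament of mesenchymal cells, had 11710 and 11950 on the first arrays and 9016 and 8071 on the second and missed the threshold (shift -0.47, adjusted p = 0.0997). *Nt5e*, which encodes the ectonucleotidase CD73 and is counted as a fibroblast gene here, was the single member that was higher (316 and 1686 on the first arrays, 414 and 3030 on the second, shift 0.62, adjusted p = 0.0236). With the high-KLF4 pair left out, its shift was 0.39 and missed the threshold.

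Contractile genes and targets of transforming growth factor β gave 22 lower and 0 higher of 29. *Cnn1* (chr9:22099221-22109221), which encodes the smooth muscle protein calponin 1, had the largest fall of the 23410 probes. Its signals were 2473 and 1752 on the first arrays and 163 and 195 on the second, 11.7-fold apart (log2 shift -3.54 ± 0.27, adjusted p = 9.48e-05). *Acta2*, smooth muscle actin, had 10065 and 9043 against 3169 and 2316 (shift -1.82), *Tagln*, an actin-binding protein, 2803 and 2326 against 372 and 334 (shift -2.86), and *Inhba*, a subunit of activin, 3562 and 2984 against 272 and 506 (shift -3.13). No second array reached the level of either first array for these genes. *Ccn1*, a matrix-associated target of the Hippo pathway, and *Csrp1*, a LIM protein, were among the 7 that did not pass the test, with shifts of 0.08 and -0.08 (adjusted p = 0.742 and 0.717).

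Among matrix proteases and their inhibitors, 17 of 18 genes were lower and *Plaur*, the receptor of urokinase, was the exception (shift 0.14, adjusted p = 0.715). *Mmp3* (stromelysin 1) had 1485 and 2475 on the first arrays and 277 and 453 on the second, and *Mmp14*, a membrane-bound collagenase, had 3325 and 3143 against 533 and 1251. *Timp3*, an inhibitor of these enzymes, showed a wide gap between the cassettes, with 6236 against 877 in low-KLF4 and 7138 against 5541 in high-KLF4 (shift -1.60, adjusted p = 0.0461). Over the 4 lists together, 115 genes had 98 lower and 1 higher (85.2% and 0.87%, compared with 10.2% and 13.5% of all probes). The count was 94 lower from the low-KLF4 pair alone and 78 lower from the high-KLF4 pair alone. Markers of other cell types were measured as well. Of 23 immune cell markers 2 were higher and 1 was lower, of 14 endothelial markers 1 was lower, and of 16 neural and muscle markers 1 was higher and 1 was lower. These shares lie below those of all probes (13.5% higher and 10.2% lower). Of 23 trophoblast and primitive endoderm markers 3 were higher and 3 were lower (13% each), close to the shares of all probes.

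The promoter of *Myl9* is printed because the gene, a myosin regulatory light chain of smooth muscle, had the largest shift (-2.84) among called contractile genes whose window holds a CArG box, the letters that serum response factor is known to bind. The window is the 250 bases before the start site in RefSeq (GRCm38.p6, chr2:156775214-156775463, + strand), with the box in capitals at position -161 from the start. Such a box was present in 2 of the 15 called contractile genes that have 1 window (13.3%) and in 1.38% of 22862 windows of single-window genes. The match is to letters only, and no binding was measured.
Myl9: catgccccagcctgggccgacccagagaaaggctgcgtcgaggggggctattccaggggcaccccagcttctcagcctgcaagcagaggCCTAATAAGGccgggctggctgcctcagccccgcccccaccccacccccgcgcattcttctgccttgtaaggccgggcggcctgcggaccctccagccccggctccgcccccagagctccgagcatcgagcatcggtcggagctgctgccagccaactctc

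Junction genes were the counterpart. The lists were adherens junction and epithelial adhesion, tight junction, and desmosome and hemidesmosome. The first of them also held epithelial genes that are not junction components, such as *Prss8*, *Elf3* and *Esrp1*, and the counts include them. *Elf3* is counted among the transcription factors of epithelia as well. Over their 76 genes 49 were higher and 4 lower on the second arrays, compared with 13.5% and 10.2% of all probes. The median shift was 0.70. The low-KLF4 pair alone gave 39 higher and the high-KLF4 pair alone 45. Of 26 genes of epithelial adhesion, 17 were higher, 1 was lower and 8 did not pass. *Cdh1*, which encodes E-cadherin, the calcium-dependent adhesion protein of adherens junctions, had 1829 and 3338 on the first arrays and 3124 and 4446 on the second. Its 2 groups overlapped across cassettes (3338 and 3124), and within each cassette the second array was higher (shift 0.59 ± 0.11, adjusted p = 0.00694). *Epcam*, an epithelial adhesion molecule that stays on in iPSCs, had 1158 and 1213 against 1235 and 1041, with a shift of -0.06 (95% interval -0.39 to 0.27, adjusted p = 0.804). Epithelial genes were thus not all higher. *Prss8*, a membrane serine protease of epithelia, had 161 and 232 on the first arrays and 672 and 664 on the second (3.46-fold, adjusted p = 0.00133). *Elf3*, an epithelial ETS factor, had 199 and 166 against 598 and 515 (shift 1.61 ± 0.12, adjusted p = 9.34e-05), and *Esrp1*, which directs epithelial splicing, 784 and 668 against 1649 and 1930 (shift 1.30). The list's member that was lower was *Cdh3*, P-cadherin, with 814 and 570 against 343 and 264 (shift -1.18, adjusted p = 0.000613).

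Tight junction genes had 16 higher and 1 lower of 24. *Ocln* (occludin), a membrane protein of the seal itself, had 157 and 359 on the first arrays and 446 and 900 on the second, 2.67-fold apart (log2 shift 1.41 ± 0.12, adjusted p = 0.000167). *Cldn4* (chr5:134945123-134946934), a claudin, had 995 and 3675 against 3032 and 6992 (log2 shift 1.27 ± 0.16, adjusted p = 0.000961). For *Ocln* both second arrays lay above both first arrays, while for *Cldn4* the low-KLF4 second array lay below the high-KLF4 first array. The scaffold proteins had shifts of 0.56 for *Tjp1* (ZO-1) and 1.19 for *Tjp3* (ZO-3), and *Cgnl1* (paracingulin) was lower (-0.84, adjusted p = 0.00561; -0.52 and not called in the high-KLF4 pair alone).

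The promoters of *Cldn4* and of *Ildr1*, a component of tricellular junctions, are printed because these called tight junction genes had the largest shifts (1.27 and 1.14) among those whose window holds CAGGTG. This E-box is the letters that SNAI and ZEB repressors are known to bind. The match is a description, and no binding was measured. It was searched on both strands and was present in 5 of the 8 called tight junction genes that have 1 window (62.5%) and in 17.1% of all windows. Among called mitosis genes it was present in 0 of 26, and in the other lists searched in 6.25% to 13.3%. The windows are chr5:134946935-134947184 on the - strand and chr16:36693728-36693977 on the + strand of GRCm38.p6 (RefSeq), and the capitals mark the E-box, which reads CACCTG in both, at -14 and at -88.
Cldn4: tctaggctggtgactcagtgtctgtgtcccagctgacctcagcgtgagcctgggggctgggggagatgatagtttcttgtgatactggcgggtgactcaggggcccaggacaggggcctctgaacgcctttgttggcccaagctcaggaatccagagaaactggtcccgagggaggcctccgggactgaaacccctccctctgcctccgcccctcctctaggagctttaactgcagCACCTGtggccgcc
Ildr1: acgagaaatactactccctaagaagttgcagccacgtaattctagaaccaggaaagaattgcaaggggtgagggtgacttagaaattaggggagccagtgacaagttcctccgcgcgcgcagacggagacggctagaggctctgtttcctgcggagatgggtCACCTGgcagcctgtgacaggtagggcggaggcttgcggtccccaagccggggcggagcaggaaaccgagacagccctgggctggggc

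Of 26 desmosome and hemidesmosome genes, 16 were higher and 2 were lower. *Dsp* (chr13:38151294-38198577), desmoplakin, which ties desmosomes to keratin filaments, had 1155 and 1961 on the first arrays and 2857 and 4581 on the second (2.4-fold, log2 shift 1.27 ± 0.08, adjusted p = 3.28e-05). *Dsg2*, a desmosomal cadherin, had 202 and 278 against 416 and 663. *Itgb4* and *Itga6*, the subunits of the laminin receptor of hemidesmosomes, had shifts of 0.74 ± 0.10 and 0.59 ± 0.10 (adjusted p = 0.00143 and 0.00308). For *Itga6*, 781 and 2375 stood against 1183 and 3556, and for *Itgb4* 1302 and 4176 against 2435 and 6204, so the gap between the cassettes was wider than the gap between the arrays. The 2 lower members were the integrins *Itgb8* (shift -1.31) and *Itgb1* (-0.79), and *Itgb1* also pairs with subunits that bind fibroblast matrix. Of 15 keratins 2 were higher (13.3%), a share like the 13.5% of all probes. *Krt18*, a keratin of simple epithelia, had 735 and 1432 against 1647 and 2040, and missed the threshold in the high-KLF4 pair alone (shift 0.51).

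**Figure D2:**
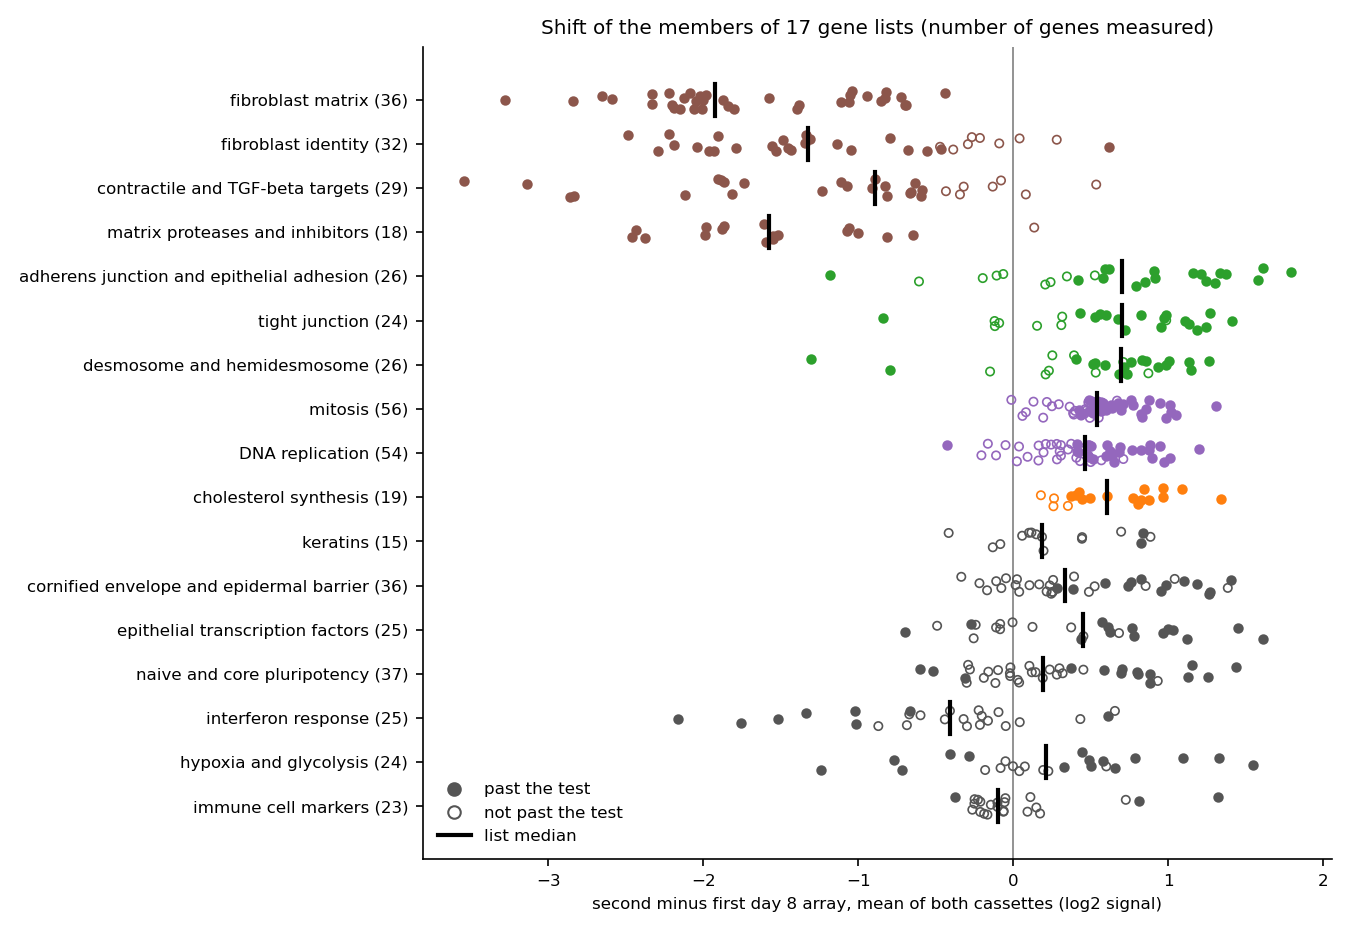
Second minus first day 8 array, as the mean of both cassettes on the log2 scale (horizontal), for each gene of 17 lists, with filled points past the test, open points not past it, and black bars for the list median. The 4 fibroblast lists lie mostly left of 0 with medians from -1.93 to -0.89, the 3 junction lists have medians of 0.70 or 0.71, and mitosis and DNA replication have medians of 0.54 and 0.46.

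Cell cycle genes were higher by smaller amounts. Of 56 mitosis genes 33 were higher and 0 lower (median shift 0.54), and of 54 DNA replication genes 26 were higher and 1 lower (median 0.46). Of all probes 13.5% were higher and 10.2% lower. Both second arrays lay above both first arrays for 44 of the 56 and 37 of the 54, as they did for 25% of all probes. *Bub1* (chr2:127800197-127831859), a kinase of the spindle checkpoint, had 883 and 719 on the first arrays and 2270 and 1715 on the second (2.48-fold, log2 shift 1.31 ± 0.21, adjusted p = 0.00316). *Mki67*, the proliferation marker Ki-67, had 1514 and 1072 against 3257 and 2137 (log2 shift 1.05 ± 0.23, adjusted p = 0.0117). *Kif14*, a mitotic kinesin outside the list and among the 10 largest rises, had 196 and 183 against 729 and 554 (3.36-fold, adjusted p = 0.000273). The first arrays were the low ones in the time series too, since the first day 8 array was the lowest of the 5 mCherry+ arrays of its cassette in both cassettes for 21 of the 56 mitosis genes, compared with 6.33% of all probes, and the second array was the highest for 31 of 56, compared with 12.5%. *Blm*, a helicase of replication forks (1.20 ± 0.11), and *Pola1*, the catalytic subunit of DNA polymerase alpha (1.02 ± 0.16), led the replication list, and *Rfc3*, a clamp loader subunit, was lower (-0.43).

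The number of called cell cycle genes depended on the arrays and the block in the fit. The low-KLF4 pair alone called 19 mitosis genes and the high-KLF4 pair alone 5, and a fit that also removed the difference between numbered mESC and keratinocyte arrays (replicate block) called 3 and left a median of 0.30. That fit called 83 lower fibroblast genes and 38 higher junction genes. *Mki67* and *Bub1* were not called in it, and *Mki67* was called in neither pair alone (shift 1.11 in low-KLF4 and 1.00 in high-KLF4).

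The windows of *Bub1* and *Mki67* are printed because these 2 genes had the largest shifts among called mitosis genes whose window holds CCAAT, the letters that the factor NF-Y is known to bind. Searched on both strands, CCAAT was present in 16 of 26 called mitosis genes with 1 window (61.5%), in 11 of 16 called replication genes (68.8%) and in 34.7% of all windows. It was present in 40% of called contractile genes, 25% of tight junction genes and 20% of matrix genes. The letters TTTGAA, also searched, were present in 26.9% of mitosis, 20% of matrix and 12.5% of replication genes (16.7% of all windows). In the other lists searched TTTGAA was present in 0%. The windows are chr2:127831860-127832109 and chr7:135716380-135716629, both on the - strand, with each CCAAT or its complement ATTGG in capitals.
Bub1: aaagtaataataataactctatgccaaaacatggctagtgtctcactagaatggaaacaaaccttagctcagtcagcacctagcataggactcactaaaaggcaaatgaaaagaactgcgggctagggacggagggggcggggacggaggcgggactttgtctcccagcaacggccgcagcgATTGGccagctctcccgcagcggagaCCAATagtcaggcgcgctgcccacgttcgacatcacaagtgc
Mki67: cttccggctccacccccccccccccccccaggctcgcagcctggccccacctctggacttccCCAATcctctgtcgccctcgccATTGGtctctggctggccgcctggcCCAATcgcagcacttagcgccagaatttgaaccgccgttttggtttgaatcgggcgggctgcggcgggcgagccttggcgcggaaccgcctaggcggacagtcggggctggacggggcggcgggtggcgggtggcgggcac

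Genes of cholesterol synthesis were higher as well. Of 19 genes 15 were higher (78.9%, compared with 13.5% of all probes) and 0 lower, with a median shift of 0.61. Both second arrays lay above both first arrays for 12 of the 19, as they did for 25% of all probes. *Insig1* (chr5:28071412-28078662), a sterol sensor that is itself a target of SREBP, had 873 and 1532 on the first arrays and 2410 and 3564 on the second (2.53-fold, log2 shift 1.34 ± 0.13, adjusted p = 0.000277). *Srebf2*, which encodes the factor that switches this pathway on, had 1460 and 2056 against 2833 and 3412 (shift 0.84), and *Lss*, lanosterol synthase, 602 and 765 against 1255 and 1670 (shift 1.09). Each of these genes was higher on the second array of its cassette. *Acss2*, a cytosolic acetyl-CoA synthetase outside the list, had 313 and 438 against 764 and 1487 (shift 1.53). The window of *Insig1*, which had the largest shift of the list, is printed with its CCAAT match (ATTGG, position -216) in capitals (chr5:28071162-28071411, + strand). Those letters were present in 10 of the 10 called genes of this list that have 1 window, and in 34.7% of all windows.
Insig1: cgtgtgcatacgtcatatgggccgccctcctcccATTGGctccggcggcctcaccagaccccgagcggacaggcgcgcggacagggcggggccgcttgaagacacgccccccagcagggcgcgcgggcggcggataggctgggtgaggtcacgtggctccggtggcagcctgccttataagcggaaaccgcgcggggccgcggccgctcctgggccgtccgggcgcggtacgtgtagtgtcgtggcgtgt

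Transcription factors of epithelia gave 12 higher and 2 lower of 25 (48% and 8%, compared with 13.5% and 10.2% of all probes). The 4 day 8 arrays alone gave 5 higher and 1 lower, and the median shift was 0.36 in low-KLF4 and 0.54 in high-KLF4. The 2 lower members were *Gata3* (shift -0.70) and *Foxa1* (shift -0.27, signals of 79.7 to 107). *Grhl3* and *Grhl2*, grainyhead-like factors that drive epithelial junction genes, had shifts of 1.45 ± 0.11 and 1.03 ± 0.11 (adjusted p = 9.68e-05 and 0.000516). *Ovol1*, a zinc finger repressor that is expressed in epithelia and that the study followed, had 147 and 445 on the first arrays and 174 and 974 on the second. It missed the threshold (shift 0.68, adjusted p = 0.0781), with a shift of 0.24 in low-KLF4 and 1.13 in high-KLF4. *Ehf* had 577 and 2806 against 539 and 2987 and a shift of -0.00 (adjusted p = 0.993). Epidermal genes were mixed. Of 36 genes of the cornified envelope and barrier 13 were higher (36.1%, compared with 13.5% of all probes) and 0 lower. Their median shift was 0.07 in low-KLF4 and 0.67 in high-KLF4. *Tgm1*, the transglutaminase that crosslinks the envelope, had 439 and 2303 on the first arrays and 1524 and 4657 on the second. *Alox12b*, a lipoxygenase of the barrier, had 128 and 160 on the first and second arrays of low-KLF4 and 2528 and 7552 on those of high-KLF4.

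Of 37 pluripotency genes 12 were higher (32.4%, compared with 13.5% of all probes), 3 were lower (8.11%, compared with 10.2%) and 22 did not pass, with a median shift of 0.19. *Nanog* had 2565 and 888 on the first arrays and 2464 and 963 on the second, *Esrrb* 176 and 436 against 154 and 483, and *Dppa5a* 83.6 and 460 against 89.4 and 498. Their shifts were 0.03, -0.02 and 0.10 (adjusted p = 0.871, 0.948 and 0.633), with 95% intervals of -0.20 to 0.26, -0.40 to 0.36 and -0.20 to 0.41. *Tfcp2l1*, a factor of naive pluripotency, was higher (143 and 377 against 315 and 985, shift 1.26, adjusted p = 0.00013), as was *Tet1*, which oxidizes methylcytosine (530 and 610 against 1726 and 931, shift 1.16, adjusted p = 0.00429). *Tdgf1*, a coreceptor of Nodal, was lower (580 and 503 against 474 and 302, shift -0.51, adjusted p = 0.0122). Probes for 3 of the factors that the cassettes carry (*Pou5f1*, *Klf4* and *Myc*) had shifts of 0.25, 0.05 and -0.00, none past the test. *Sox2*, at 123 and 175 against 95.4 and 120, was lower (shift -0.45, limma adjusted p = 0.0427). Those *Sox2* signals were low, near its day 2 and day 4 values (85.0 to 131) and far below 2813 and 1720 on day 18. What part of the factors' probes lies in the cassette sequence was not tested.

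Of the 10 largest rises, *Prss8* belongs to the epithelial adhesion list described above, and most of the others are in no list. *Ccdc141* (chr2:77009902-77173769), which encodes a coiled-coil protein, had 650 and 626 on the first arrays and 3208 and 3520 on the second, and 5 probes for it had shifts between 1.66 and 2.46 (2.40 ± 0.21 for the probe with the highest signal, adjusted p = 0.000164). *Rny1*, a small noncoding Y RNA, had 64.0 and 60.7 against 286 and 256, and the small nucleolar RNAs *Snora44* and *Snord73b* had shifts of 2.36 and 2.23. *Snora44* was not called in the high-KLF4 pair alone (shift 1.97). Over all 56 probes for small nucleolar RNAs, a group chosen after its values were seen, 26 were higher and 0 lower, with a median of 0.45. Of all probes 13.5% were higher and 10.2% lower. From day 4 to day 18 the same 56 probes had 29 higher and 0 lower, compared with 12% and 18.4% of all probes. *Scnn1a*, a subunit of the epithelial sodium channel, had 146 and 247 against 330 and 1536, and was not called in the low-KLF4 pair alone (shift 1.17). Among the 10 largest falls, 7 genes are in no list. *Igfbp5*, which binds insulin-like growth factors, had 1686 and 1987 on the first arrays and 154 and 222 on the second, *Col10a1*, type X collagen, 1372 and 1145 against 170 and 109, and *Penk*, the enkephalin precursor, 8294 and 9521 against 956 and 889. The membrane receptors *Agtr2* (angiotensin II, shift -3.12) and *Nrp1* (neuropilin 1) were also among the 10.

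**Figure D3:**
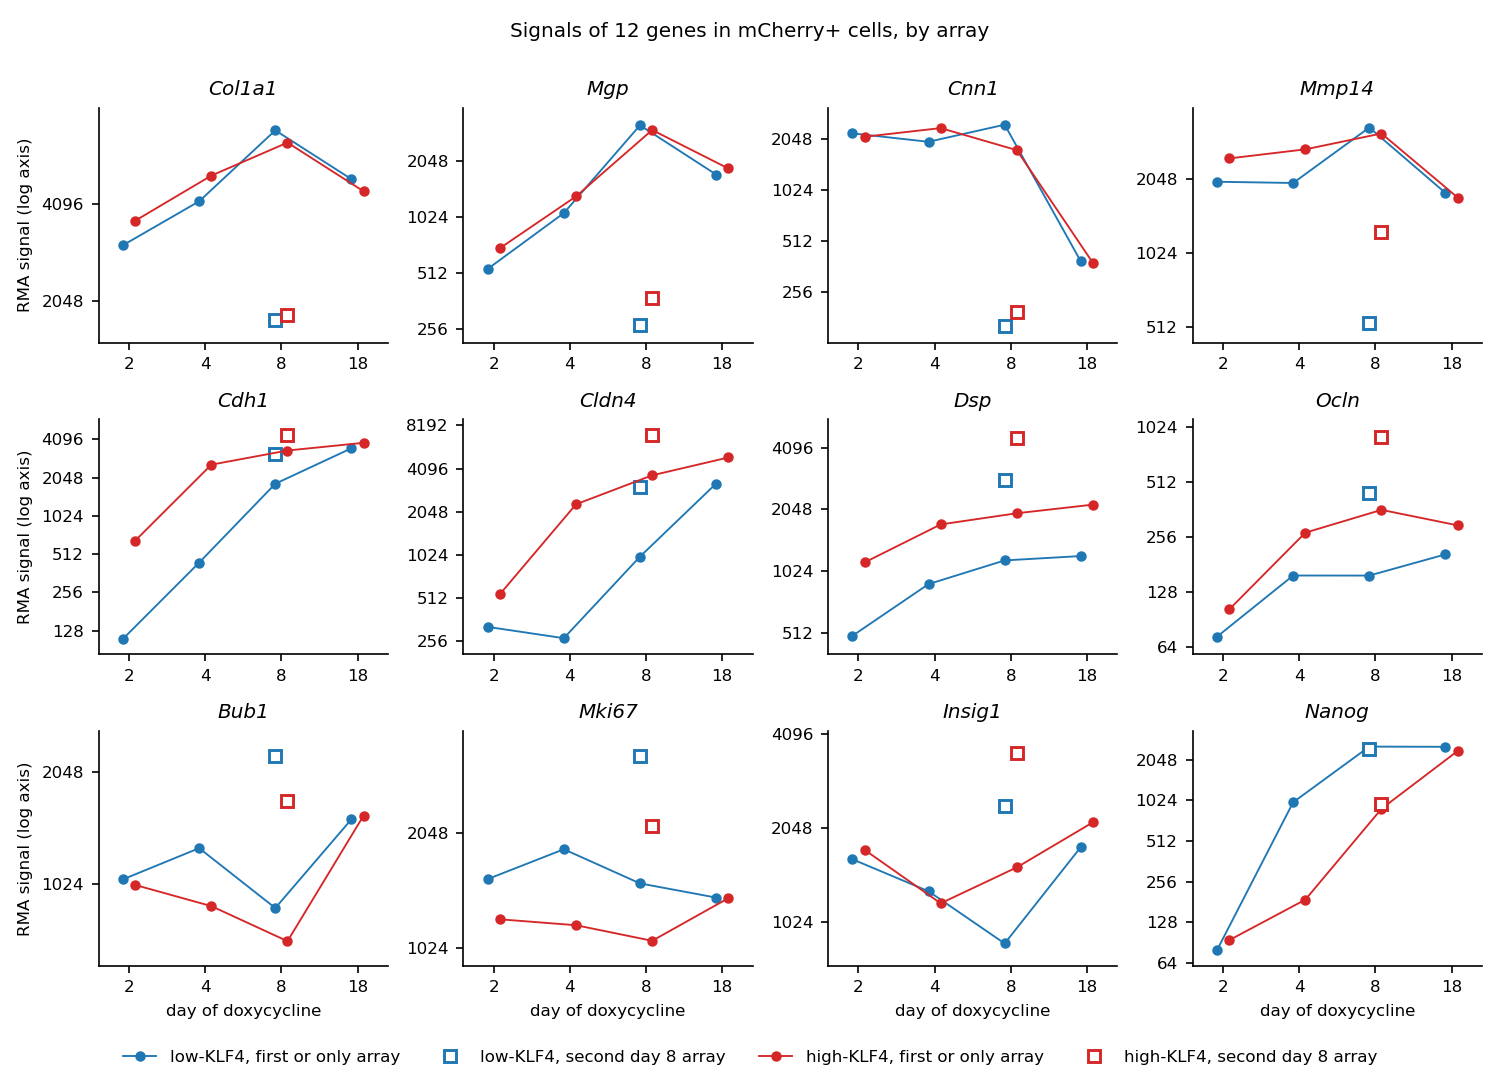
Signal (log axis) of 12 genes by day of doxycycline in low-KLF4 (blue) and high-KLF4 (red), where filled points are the first or only array of a day and open squares the second day 8 array. For *Col1a1*, *Mgp*, *Cnn1* and *Mmp14* the second arrays lie below every other mCherry+ array of the same cassette, for *Dsp*, *Ocln*, *Bub1*, *Mki67* and *Insig1* above every other one, and for *Nanog* next to the first arrays.

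Few probes passed the test for a difference in the shift between the cassettes. With 1 array of each kind per cassette, this test takes its spread from the iPSC, mESC and keratinocyte pairs. The small count therefore does not show that the shifts of the cassettes were equal. The second minus first difference of high-KLF4 against that of low-KLF4 passed its own test for 164 probes (0.701% of 23410), 136 (0.581%) more positive in high-KLF4 and 28 (0.12%) more negative. *Cldn1*, a claudin of the epidermal tight junction, went from 164 on the first array to 113 on the second in low-KLF4 and from 143 to 818 in high-KLF4 (difference between cassettes 3.05, adjusted p = 0.0152). The interferon response list held 6 of these probes, all more positive in high-KLF4. *Ifih1*, an RNA sensor, went from 1031 to 230 in low-KLF4 and from 644 to 454 in high-KLF4, while *Oas2*, a 2′-5′ oligoadenylate synthetase, went from 170 to 140 and from 182 to 547. The median shift of the 25 interferon genes was -0.82 in low-KLF4 and 0.22 in high-KLF4, and 7 were lower and 1 higher over both.

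The question that remained was whether the second arrays stood further along the day 4 to day 18 direction than the first. This direction was the difference between the day 18 and day 4 arrays of mCherry+ cells, which share no array with the day 8 comparison. The study detected full reprogramming by Nanog-GFP together with silencing of mCherry. The direction therefore describes cells that still expressed the cassette on day 18, and it was not taken as a measure of progress to iPSCs. It did include a gain of pluripotency genes, of which 30 of 37 were higher on day 18 than on day 4. Day 18 against day 4 gave 2808 probes higher (12% of 23410) and 4317 lower (18.4%), 30.4% in all. Over the 23410 probes, the shift had a Pearson's r of 0.0636 and a Spearman's rho of 0.0353 with this direction, and the part along it made up 0.39% of the shift's sum of squares. Within a cassette r was 0.0285 in low-KLF4 and 0.035 in high-KLF4, and across cassettes it was 0.178 for the low-KLF4 shift on the high-KLF4 direction and -0.0207 for the reverse. The shift was not small beside the direction, with a root mean square of 0.438 against 0.563 on the log2 scale.

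Each array was also placed on the line from day 4 (0%) to day 18 (100%) of its cassette. In low-KLF4 the first array stood at 21.3% and the second at 23.5%, and in high-KLF4 they stood at 21.9% and 24.5%. Both second arrays were further along, by 2.2 and 2.6 points, and all 4 stood between 21.3% and 24.5%. On the same lines the iPSC clones stood at 58.7% and 61.3% in low-KLF4 and at 81.2% and 82.3% in high-KLF4. An exact permutation test that exchanges arrays within cassettes cannot go below a two-sided p of 0.5 with its 4 arrangements, so the positions are given as a description.

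Of 2671 probes past both tests, 1420 (53.2%) had the same direction in both comparisons and 1251 (46.8%) the opposite direction. Of the 26 genes of epithelial adhesion 15 were past both tests, of which 14 had the same direction, and the median of the list was 1.41 from day 4 to day 18. *Prss8* had 114 and 151 on day 4 and 2002 and 1619 on day 18, with the second day 8 arrays (672 and 664) in between. *Cldn4* and *Elf3* were also higher on day 18 than on day 4 (differences of 2.33 and 2.37). Desmosome genes had a median of -0.03 from day 4 to day 18, and *Dsp*, at 1213 and 2160 on day 18, was higher on the second day 8 arrays than at either end. For 15 of the 26 desmosome and hemidesmosome genes the second array lay above both day 4 and day 18 in both cassettes, compared with 16.7% of all probes.

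Fibroblast genes had no common direction from day 4 to day 18. Over the 4 lists 25 of 115 genes were higher and 33 lower on day 18 than on day 4 (median -0.17). Of all probes 12% were higher and 18.4% lower on day 18. On the second day 8 arrays, by contrast, 98 of the 115 genes were lower. Among those past both tests 26 had the same direction and 23 the opposite one. For 26 of 36 matrix genes the second array lay below both day 4 and day 18 in both cassettes, compared with 20.9% of all probes. *Col1a1* was at 4178 and 5024 on day 4 and 4898 and 4488 on day 18, above the 1783 and 1852 of the second day 8 arrays. *Lum*, the matrix proteoglycan lumican, had 104 and 198 on day 4, 776 and 988 on the first day 8 arrays, 105 and 202 on the second and 1333 and 2317 on day 18. *Pdgfra*, the other receptor for platelet-derived growth factor, had the same course with 213 and 257, 817 and 834, 220 and 222, and 1927 and 1778. For both genes the second arrays were close to day 4 and the first arrays lay between day 4 and day 18. *Cnn1* was among the genes that fell in both comparisons, from 1962 and 2362 on day 4 to 390 and 381 on day 18.

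The first arrays were themselves high. For 26 of 36 matrix genes the first day 8 array was the highest of the 5 mCherry+ arrays in both cassettes, compared with 4.48% of all probes, and for 23 of 36 the second was the lowest, compared with 15.5%. The median log2 signal of the matrix list in low-KLF4 was 10.29 on day 2, 10.75 on day 4, 11.51 and 9.46 on the first and second day 8 arrays, and 11.05 on day 18. In high-KLF4 it was 10.54, 11.1, 11.38, 9.68 and 10.91. The second arrays thus lay below day 2 as well, and day 18 lay between the 2 day 8 arrays.

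**Figure D4:**
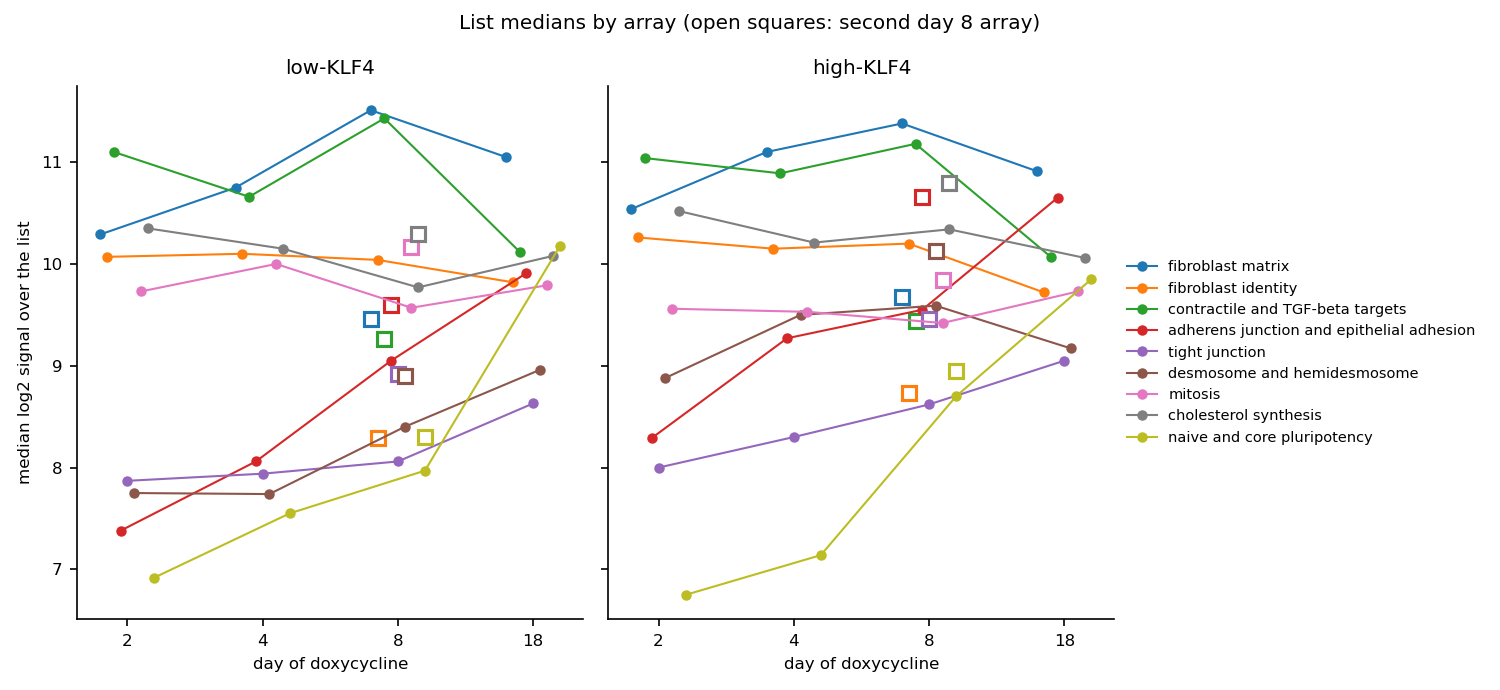
Median log2 signal over the genes of 9 lists (vertical) by day of doxycycline in low-KLF4 and high-KLF4, with points joined by lines for the first or only array of a day and open squares for the second day 8 array. The fibroblast squares lie below every point of the same colour, as for the matrix list in low-KLF4 (9.46 against 10.29 to 11.51), and the mitosis squares lie above every point of the same colour.

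Mitosis genes had a median of -0.09 from day 4 to day 18 and cholesterol synthesis genes one of -0.23, while both lists were higher on the second day 8 arrays. The second array lay above both day 4 and day 18 in both cassettes for 33 of 56 mitosis genes, 24 of 54 replication genes and 12 of 19 cholesterol genes (16.7% of all probes). Conversely, pluripotency genes had a median of 1.91 from day 4 to day 18 and 0.19 between the day 8 arrays. *Dppa5a* was at 79.0 and 69.2 on day 4 and at 6885 and 4296 on day 18.

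**Figure D5:**
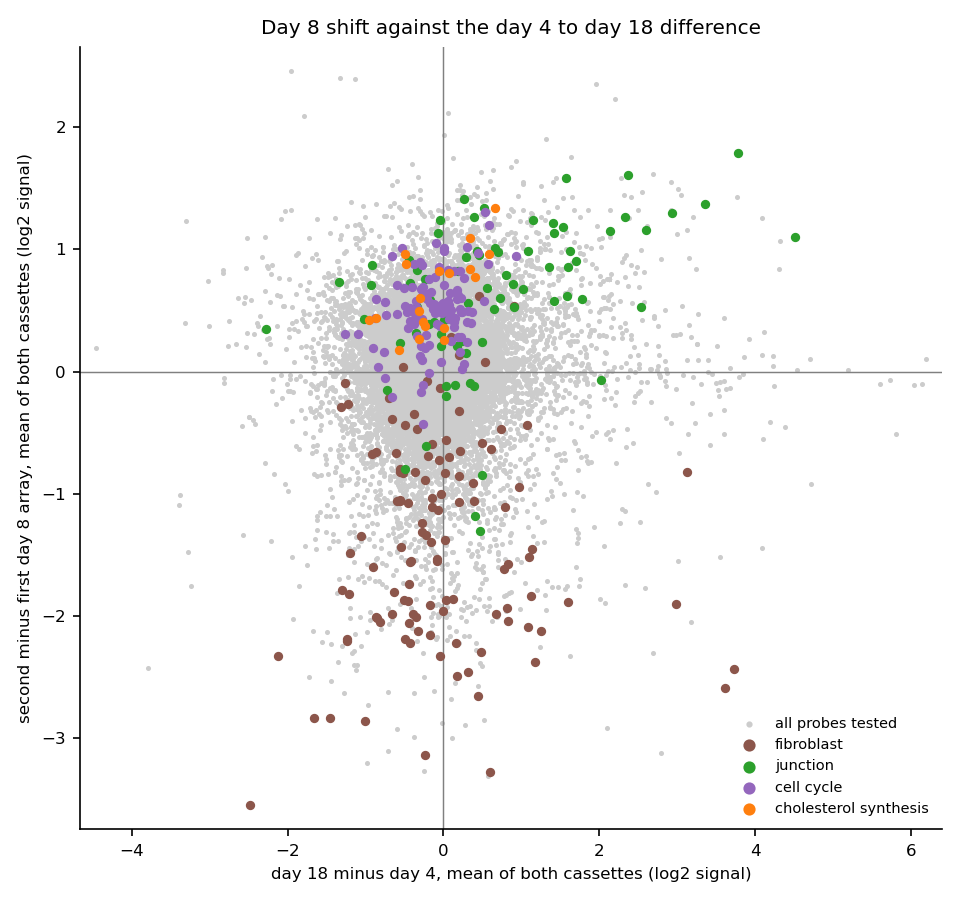
Second minus first day 8 array (vertical) against day 18 minus day 4 (horizontal), both as means of the cassettes on the log2 scale, 1 point per probe. The cloud of all probes has r = 0.0636, fibroblast genes (brown) spread below 0 on both sides of 0, and the junction genes at the upper right are those that were also higher on day 18.

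Other directions gave larger, still modest values of r. It was 0.132 for day 2 to day 18, 0.192 for day 2 to day 4, 0.258 for day 4 to the iPSC clones and 0.245 for day 18 to the iPSC clones. The iPSC arrays themselves held *Cnn1* at 1351 to 2257 and *Col1a1* at 1061 to 1520, and the part of this in the values was not tested. For mESC to keratinocyte r was -0.0113. The difference between the numbered mESC arrays had r = 0.0117 and that between the keratinocyte arrays r = -0.0343 with the shift.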

How the data were processed

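RNA of 18 samples was measured, with 1 Affymetrix Mouse Gene 1.0 ST array per sample. The deposited values were signal intensities on a linear scale, which the authors had made with RMA (background correction, quantile normalization and probe summary) in GeneSpring GX 13.1. They ran from 20.2 to 19539, with array medians between 139 and 162. No detection calls or scan records were used here, so the number of arrays limits the precision. Of 28853 probes, 21789 had 1 gene symbol, 1621 several and 5443 none. Coordinates and promoter windows came from RefSeq (GRCm38.p6).

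The log2 signals of all 18 arrays were fitted with limma 3.58.1 in R 4.3.3, with 12 groups and 1 term for the 2 second day 8 arrays (5 residual degrees of freedom). This term is the mean second minus first difference of both cassettes. Day 18 minus day 4 was a contrast of the same fit, and the difference between cassettes a second fit with 4 residual degrees of freedom. P-values were adjusted by Benjamini-Hochberg over the 23410 probes with a symbol, with a threshold of 0.05. Of the 5 residual degrees of freedom 1 came from the day 8 arrays and the others from the iPSC, mESC and keratinocyte pairs. P-values of the shift therefore rest largely on the spread within those pairs. The labels do not say which samples came from separate cultures, so p-values measure the spread between these arrays only. The fit was tested on simulated data.

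The 26 gene lists (674 of 714 entries measured), the members and the motifs were chosen with earlier results of these data known. A gene with several probes was read from the one with the highest mean signal. List entries were matched by current symbol, or by a synonym that belongs to 1 gene. The pluripotency list held *Rexo2*, an exonuclease entered by mistake, which was left in (shift -0.16, not called). Named genes were the 10 largest rises and falls, the 2 largest called in each direction per list, the 5 largest against the day 4 to day 18 direction each way, the 5 largest differences between cassettes, and 9 genes that the study names. Other list members were named after their values were seen. Lists were described by counts and medians, with no set test. Alternatives covered the arrays in the fit, blocks, filter, scaling, variance prior, offset, test and left-out arrays.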

Additional observations from a re-analysis of the deposited data

Results flagged for a closer look

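The second minus first difference differed between the cassettes for 164 probes by the test of that difference (limma, adjusted over 23410 probes), and 136 of them were more positive in high-KLF4. The 5 largest differences were all more positive in high-KLF4. *Cldn1* differed by 3.05 on the log2 scale, from 164 to 113 in low-KLF4 and from 143 to 818 in high-KLF4. *Gabrp*, a GABA receptor subunit, differed by 2.57 (78.4 to 94.8 and 440.0 to 3153). *Nptx1*, a neuronal pentraxin, differed by 2.53 and moved in opposite directions (lower on the second array in low-KLF4, and from 489.5 to 1416 in high-KLF4). *Serpinb5*, the serpin maspin, differed by 2.47 (52.1 to 45.6 and 196 to 951), and *Cnfn*, cornifelin of the cornified envelope, by 2.45 (150 to 168 and 314 to 1918). *Prom2*, a relative of prominin 1, rose in both cassettes and differed by 1.32 (121 to 258 and 256.5 to 1368). Each cassette has 1 array of each kind, so a cassette's own difference has no replicate.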

How the results depend on the processing

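The count of probes changed between second and first arrays was 5558, and it ran from 5333 to 5904 without the dimmest 30% of probes, after a second quantile normalization, with median-centred arrays, with limma-trend and with 50 added to the signal. It was 2249 from the 4 day 8 arrays alone (1 residual degree of freedom), 77 without the cassette block as well, and 3233 to 3392 when any 1 day 8 array was left out, which leaves the pair of the other cassette. With a replicate block over the numbered mESC and keratinocyte arrays it was 3096. The labels do not say that a number marks a shared experiment. The methods' t-test gave 0 after Benjamini-Hochberg and 3338 at an unadjusted p under 0.05. No probe called in the reported fit and in an alternative changed sign. The balance of rises and falls depended on the scaling. With median-centred arrays 3909 probes were higher and 1995 lower, and after a second quantile normalization 2902 and 2493. In the reported fit these counts were 3160 and 2398.

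Day 18 against day 4 gave 1952 probes from its 4 arrays alone, compared with 7125. The shift along the day 4 to day 18 direction, an r of 0.0636, moved to 0.178 (low-KLF4 shift on the high-KLF4 direction), 0.192 (day 2 to day 4), 0.258 (day 4 to iPSC), 0.245 (day 18 to iPSC) and 0.229 (probes of at least 2-fold shift, chosen after seeing the data), and to between 0.00699 and 0.108 with 1 day 8 array left out. The cause was not tested.

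With the replicate block the median shift of mitosis genes was 0.302 and that of DNA replication genes 0.2. With an array left out, the median of proteases ran from -1.856 to -1.336 and that of matrix genes from -2.018 to -1.739. In counts of called list members, computed after seeing the data, the 4 arrays alone gave 75 lower fibroblast, 33 higher junction and 36 higher cell cycle genes. *Epcam* turned to 0.0779 (replicate block) and 0.0932 (low-KLF4 pair alone), and *Ehf* to 0.4483 (replicate block), 0.0541 (median-centred) and 0.09 (high-KLF4 pair alone), none of them called. In the low-KLF4 and the high-KLF4 pair alone, *Epcam* ran from -0.2206 to 0.0932, *Ehf* from -0.0978 to 0.09, *Cldn1* from -0.5386 to 2.5135, *Nptx1* from -1.0002 to 1.5326 and *Serpinb5* from -0.1912 to 2.2762.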

Other observations

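Genes of hypoxia and glycolysis, read as a further group, were mixed, with 10 higher and 5 lower of 24 (13.5% and 10.2% of all probes). *Egln3*, a prolyl hydroxylase that is itself induced by low oxygen, had 857 and 1662 on the first arrays and 2453 and 4969 on the second (log2 shift 1.55, limma adjusted p = 4.09e-05), and *Aldoc*, an aldolase, 824 and 1100 against 2203 and 2588 (shift 1.33, adjusted p = 0.00178). Both were higher on the second array of each cassette. *Car9*, a carbonic anhydrase that is likewise a hypoxia gene, was lower (198 and 245 against 91.6 and 95.1, shift -1.24, adjusted p = 0.000403). *Ldha*, lactate dehydrogenase A, had 9851 and 9727 against 10692 and 9949 and a shift of 0.08 (adjusted p = 0.664).

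Of 25 interferon response genes, 7 were lower and 1, *Rsad2*, was higher (28% and 4%, compared with 10.2% and 13.5% of all probes). The low-KLF4 pair alone gave 17 lower and 0 higher (median -0.82), and the high-KLF4 pair alone 5 lower and 3 higher (median 0.22). *Cxcl10*, a chemokine, had 3175 and 3284 on the first arrays and 840 and 1087 on the second (shift -1.76), and *Ifi27* had 1212 and 996 against 201.5 and 300.0 (shift -2.16). Both second arrays lay below both first arrays for each of these genes.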
